A study of Mus musculus with 7 samples.

Results

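The proteasome genes were followed in naive CD4 T cells, helper T cells that have not met their antigen, by RNA sequencing of 7 libraries. The members are the genes whose symbol has Psm, a letter from a to g and a number, with pseudogenes left out, and 50 of the 34745 genes in the deposited table met this rule. Of these, 5 encode parts of the immunoproteasome (Psmb8, Psmb9, Psmb10, Psme1 and Psme2), and the other 45 are the remaining subunits, activators, the inhibitor and assembly factors, with 2 genes, Psmc3ip and Psme2b, that match by name only. All mice were males of the C57BL/6 strain, 8 weeks old and without any treatment. The 3 wild-type (WT) mice were compared with 4 mice heterozygous for PIK3CD GOF, an allele with a gain of function, and the controls were littermates matched for sex and age. PIK3CD is p110delta, a catalytic subunit of the lipid kinase PI3K that is abundant in lymphocytes. The labels do not restrict the allele to a cell type, so other cells of the GOF mice may carry it too. The cells came from the spleen by negative selection with no culture step, and each library has 1 column of counts in the table.

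The proteasome is a barrel-shaped protease that degrades proteins tagged with ubiquitin. Its 20S core has outer rings of alpha subunits and inner rings of beta subunits, and 3 of the beta subunits cut proteins. The 19S cap recognises ubiquitin chains, removes them and unfolds the substrate with a ring of ATPases. In lymphocytes and in cells exposed to interferon, the cutting subunits Psmb5, Psmb6 and Psmb7 can be replaced by the inducible subunits Psmb8, Psmb9 and Psmb10, which gives the immunoproteasome. Psme1 and Psme2 form PA28, an alternative cap that opens the core. Together they shape the peptides that MHC class I molecules present.

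The RefSeq promoter table held a window for 42 of the 50 members on build GRCm38.p6, each with 250 bases before and 50 bases after the start of transcription. Stretches of the windows of the 3 immunoproteasome genes that rose, and of Psmb8, are shown here because these genes carry the difference between the genotypes, or, for Psmb8, lie beside one that does. Capitals mark matches to the motifs searched on both strands, and each stretch ends with the first 30 bases transcribed from the RefSeq start. As deposited, Psmb9 (to base 34187764, minus strand), Psme1 (from base 55578123) and Psmb8 (from base 34197721) begin upstream of that start. Distances below are counted from the RefSeq start shown.
Psmb9 (chr17:34187301-34187580, minus strand): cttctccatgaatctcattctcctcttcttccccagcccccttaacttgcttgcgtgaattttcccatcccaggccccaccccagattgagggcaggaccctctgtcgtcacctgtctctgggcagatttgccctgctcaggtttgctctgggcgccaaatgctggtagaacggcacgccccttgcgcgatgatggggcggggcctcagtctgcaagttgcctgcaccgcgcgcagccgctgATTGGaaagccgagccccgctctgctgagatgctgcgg
Psmb10 (chr8:105938363-105938512, minus strand): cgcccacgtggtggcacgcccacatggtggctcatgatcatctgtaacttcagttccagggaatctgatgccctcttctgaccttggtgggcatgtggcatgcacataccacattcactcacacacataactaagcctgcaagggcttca
Psme1 (chr14:55578374-55578523, plus strand): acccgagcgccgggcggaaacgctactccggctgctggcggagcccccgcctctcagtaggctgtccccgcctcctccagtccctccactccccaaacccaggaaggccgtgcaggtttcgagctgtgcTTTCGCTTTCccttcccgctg
Psmb8 (chr17:34198075-34198224, plus strand): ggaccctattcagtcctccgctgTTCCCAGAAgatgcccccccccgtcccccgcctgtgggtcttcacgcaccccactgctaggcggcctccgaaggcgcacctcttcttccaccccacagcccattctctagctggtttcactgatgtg

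The Psmb9 stretch holds the RefSeq starts of 2 genes that are read in opposite directions. Psmb9 as deposited reaches past the Tap1 start, so the 2 genes overlap there. The RefSeq starts of Psmb9 (base 34187330, minus strand) and of Tap1 (base 34187556, plus strand), a subunit of the peptide transporter that works downstream of the proteasome, have 225 bases between them, and the 2 promoter windows share 275 of 300 bases. The capitals in Psmb9 are a CCAAT box on the strand opposite to the printed sequence, 8 to 4 bases before the start. In Psme1 they are a match to GAAA, any 2 bases and GAAA, the core of the interferon-stimulated response element (ISRE), on the opposite strand and 10 to 19 bases into the transcript. In Psmb8 they are a match to TTCNNNGAA, the gamma-activated site, 97 to 89 bases before the start. None of the searched motifs was in the window of Psmb10. Over all members with a window, the ISRE core was present in 5 of 42 (11.9%) against 3.99% of the 27025 genes in the table, and TTCNNNGAA in 3 of 42 (7.14%) against 9.55%. The antioxidant response element TGACNNNGC, the site of the Nrf factors known to drive proteasome genes, was present in 6 of 42 (14.3%) against 14%, and its full form TGACTCAGC in 0 of 42 against 0.503%. The CCAAT box was present in 15 of 42 (35.7%) against 41.1%. These shares describe letters in the windows and were not tested.

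Values are counts per 1000000 counts (CPM) with totals scaled by TMM, and differences are log2 fold changes of GOF against WT with their standard error (SE). The test was edgeR's quasi-likelihood test over 12668 genes with p-values adjusted by the Benjamini-Hochberg method, and a gene rose or fell where the adjusted p was below 0.05. Of the members 48 passed the filter on low counts. Psma8, the alpha subunit of testis, had 3 counts in GOF replicate 3 and 0 in the other libraries, and Psmb11, the beta subunit of thymic cortical epithelium, had 0 counts throughout. Library totals ran from 14497957 to 16293539 counts, and the members together took 0.392% to 0.505% of them. Mitochondrial genes took 4.33% to 5.12% of the counts in WT and 5.78% to 6.71% in GOF, and 14042 to 15264 genes had a count in WT against 15350 to 16030 in GOF. The part of these differences in the results below was not tested. The precision of each value below is that of 3 against 4 mice.

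Immunoproteasome genes stood higher in the GOF cells, and the other proteasome genes did not move as a block. Of the 5 immunoproteasome genes 3 rose and 0 fell, where 16.8% of all tested genes rose. The median log2 fold change of the 5 was 0.50, against 0.01 for all tested genes. Of the 43 other members tested 3 rose and 4 fell, together 16.3%, below the 31.3% of all genes that were called in either direction, and their median was -0.0007. The size of the change was under 0.3 on the log2 scale in 35 of these 43 (81.4%), against 46.2% of all tested genes. Without the name-only matches Psmc3ip and Psme2b, 2 of 41 rose and 4 fell, together 14.6%. No member changed by a log2 fold change of 1 or more. Over all genes 2130 were called higher and 1838 lower, a split that was 2527 to 1428 with scaling by library totals and 1870 to 2107 after quantile normalization.

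Psmb9, also called LMP2, is the inducible counterpart of Psmb6 (ENSMUSG00000096727, chromosome 17, 34181988 to 34187764 on mm10 as deposited). It was at 80.2, 98.3 and 80.8 CPM in WT and at 169, 160, 180 and 178 CPM in GOF. Every GOF library lay above every WT library, and the 4 GOF values were close together. The WT mean was 86.5 ± 10.3 CPM (SD, n = 3) and the GOF mean 172 ± 8.99 CPM (SD, n = 4), or 1.98-fold (log2 fold change 0.99, SE 0.10, edgeR adjusted p = 0.000138). It kept its call under all 19 alternatives, with adjusted p-values up to 0.00356. In the annotation 212 bases of its exons overlap Tap1 on the other strand, and the strand setting of the counts is not given in the sources used here, so reads from that stretch cannot be told apart.

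Psmb10, the inducible trypsin-like subunit also called MECL-1 (chromosome 8, 105935728 to 105938392), was at 86.5, 80.2 and 79.2 CPM in WT and at 134, 126, 142 and 151 CPM in GOF. The groups were again apart, with little spread in WT. It rose 1.68-fold (log2 fold change 0.75, SE 0.09, edgeR adjusted p = 0.000391) and also kept its call under all 19 alternatives, with adjusted p-values up to 0.00853. Psmb8, the inducible chymotrypsin-like subunit also called LMP7 (chromosome 17, 34197721 to 34201454), had the highest CPM of the 5 in WT and changed least. It stood at 346, 323 and 277 CPM in WT and at 365, 329, 397 and 370 CPM in GOF, so that WT replicate 1 lay within the GOF range. Its log2 fold change of 0.21 (SE 0.10) did not pass (edgeR adjusted p = 0.138), and it passed in 4 alternatives, among them scaling by library totals (0.29, adjusted p = 0.0477). Its exons overlap an antisense RNA by 498 bases. Psmb8 and Psmb9 thus lie next to each other on chromosome 17 with Tap1 between them, and their fold changes were 0.21 and 0.99.

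Psme1, the alpha chain of PA28 (chromosome 14, 55578123 to 55581529), was at 257, 192 and 228 CPM in WT and at 328, 299, 348 and 299 CPM in GOF. The groups did not overlap, and Psme1 rose 1.41-fold (log2 fold change 0.50, SE 0.11, edgeR adjusted p = 0.00987). Psme2, its beta chain and close neighbour on chromosome 14, was at 53.0, 47.9 and 54.2 CPM in WT and at 57.7, 54.8, 72.9 and 73.5 CPM in GOF. Replicates 3 and 4 were clearly above WT while replicates 1 and 2 were just above it, and the log2 fold change of 0.32 (SE 0.13) did not pass (edgeR adjusted p = 0.0913). Without GOF replicate 2 it passed (0.40, adjusted p = 0.0439). Groups did not overlap for 4 of the 5 immunoproteasome genes, all with GOF above WT. Over all tested genes the groups did not overlap in 39.8%, with GOF above WT in 21.5%.

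**Figure D1:**
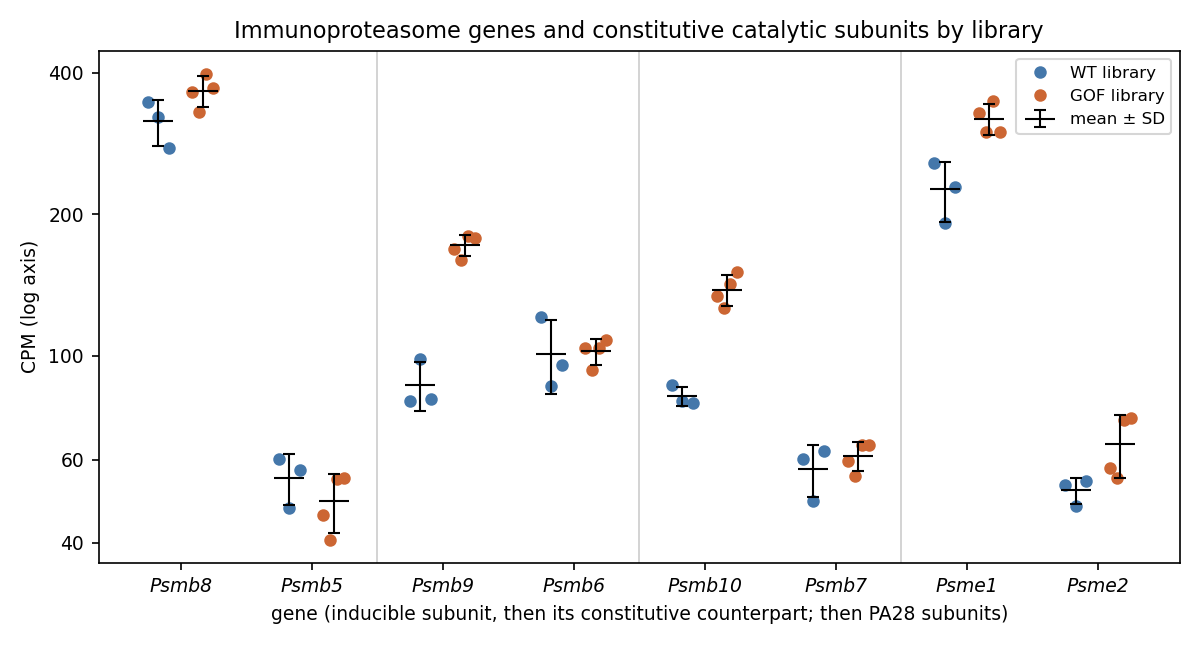
CPM on a log axis for the inducible catalytic subunits, each beside its constitutive counterpart, and for the PA28 genes Psme1 and Psme2. Points are libraries (3 WT, 4 GOF) and black marks the mean ± SD. For Psmb9, Psmb10 and Psme1 all GOF points lie above all WT points, while the points of Psmb5, Psmb6 and Psmb7 overlap.

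The constitutive counterparts gave no call. Psmb5, the chymotrypsin-like subunit, was at 60.2, 47.4 and 57.2 CPM in WT and at 45.9, 40.6, 54.7 and 54.8 CPM in GOF (log2 fold change -0.16, SE 0.14, edgeR adjusted p = 0.401). Psmb6, the caspase-like subunit, was at 121, 86.2 and 95.5 CPM in WT and at 104, 93.0, 104 and 108 CPM in GOF (0.02, SE 0.12, edgeR adjusted p = 0.931). Psmb7, the trypsin-like subunit, was at 60.1, 49.2 and 62.5 CPM in WT and at 59.7, 55.6, 64.7 and 64.6 CPM in GOF (0.09, SE 0.11, edgeR adjusted p = 0.567). In all 3 the groups overlapped. Exons of Psmb7 overlap those of Nek6 on the other strand by 405 bases.

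The mRNA of inducible over constitutive subunits was followed within each library as the ratio of the deposited FPKM (counts scaled by gene length and by the library total). This ratio does not depend on how libraries are scaled. The exchange of subunits in the protein was not measured. For Psmb9 over Psmb6 the ratio was 0.326, 0.563 and 0.417 in WT and 0.803, 0.849, 0.856 and 0.808 in GOF. The means were 0.435 ± 0.119 (SD, n = 3) and 0.83 ± 0.0273 (SD, n = 4), a 1.95-fold higher ratio with no overlap (exact permutation test, 2-sided, p = 0.0571, the smallest that 3 against 4 libraries allow; 0.0856 adjusted over the 3 pairs). For Psmb10 over Psmb7 the ratio was 4.03, 4.57 and 3.55 in WT and 6.28, 6.36, 6.15 and 6.54 in GOF, a 1.57-fold higher ratio with no overlap (exact permutation p = 0.0571, adjusted 0.0856). For Psmb8 over Psmb5 it was 1.30, 1.54 and 1.10 in WT and 1.80, 1.84, 1.64 and 1.53 in GOF. GOF replicate 4 lay below WT replicate 2 here, and the 1.31-fold higher mean ratio was not separated from the spread of the libraries (exact permutation p = 0.114, adjusted 0.114). This permutation test could not pass 0.05 for any pair.

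**Figure D2:**
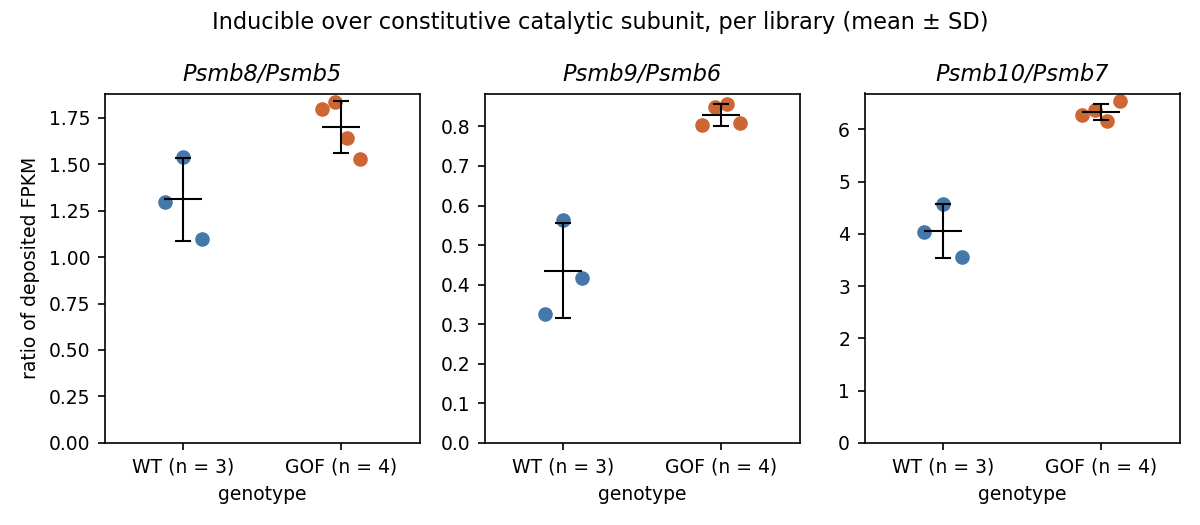
Ratio of deposited FPKM of each inducible catalytic subunit to its constitutive counterpart, by genotype. Points are libraries, black marks the mean ± SD, and each axis starts at 0. GOF libraries lie between 0.803 and 0.856 for Psmb9/Psmb6 and between 6.15 and 6.54 for Psmb10/Psmb7, above all WT libraries, and overlap WT for Psmb8/Psmb5.

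Levels between genes rest on the gene length that the authors divided by. That length was 0.225 to 2.69 times the summed exon length in GENCODE M21 over the 49 members with a count, with a median of 1.25, so ratios near 1 are uncertain in size. With GENCODE exon lengths the Psmb9 to Psmb6 ratio was 0.452 in WT and 0.860 in GOF, that of Psmb10 to Psmb7 2.90 and 4.53, and that of Psmb8 to Psmb5 1.54 and 2.00. The difference between genotypes on the log2 scale is the same with either length. By both lengths Psmb10 and Psmb8 mRNA exceeded that of Psmb7 and Psmb5 in both genotypes. The mean Psmb9 to Psmb6 ratio was below 1 by both lengths. Before division by length, Psmb9 was at 86.5 CPM and Psmb6 at 101 CPM in WT. In GOF the order was the opposite, with 172 CPM for Psmb9 and 102 CPM for Psmb6. Which of these genes had more mRNA in GOF thus rests on the lengths and is uncertain. The 5 immunoproteasome genes together were at 761 ± 54.7 CPM in WT (SD, n = 3) and at 1058 ± 69.9 CPM in GOF (SD, n = 4). Their share of the summed CPM of all members was 16.8%, 18.3% and 16.0% in the WT libraries. In the GOF libraries it was 22.2%, 21.8%, 23.0% and 21.9%. The other members together, Psmc3ip and Psme2b included, were at 3726 ± 385 CPM in WT and 3702 ± 162 CPM in GOF.

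Among the other genes of the 20S core, the 7 alpha subunits of the outer rings had log2 fold changes from -0.24 (Psma3) to 0.34 (Psma4), and 1 rose. Psma4 was at 102, 78.4 and 82.2 CPM in WT and at 112, 97.8, 116 and 117 CPM in GOF. WT replicate 1 lay above GOF replicate 2, and the log2 fold change of 0.34 (SE 0.12) was just past the threshold (edgeR adjusted p = 0.0497). It lost its call in 8 alternatives, among them the fit without WT replicate 2 (0.27, adjusted p = 0.135), without WT replicate 3 (adjusted p = 0.156), without GOF replicate 1 (0.101), 3 (0.108) or 4 (0.124), and with the replicate number as a block (0.0772). The block fit also left out GOF replicate 4, which has no WT library of the same number. Psma2 (0.30, SE 0.11) came next without passing (edgeR adjusted p = 0.0730). Of the 4 structural beta subunits 0 passed and 1, Psmb2, had an unadjusted p below 0.05 (0.0331; log2 fold change 0.36, SE 0.15, edgeR adjusted p = 0.0872). Psmb1 had the opposite sign at -0.21 (SE 0.14), with a WT range of 157 to 239 CPM that took in the GOF values of 149 to 184 CPM except the lowest. Over the 14 constitutive core subunits 1 rose, 0 fell and none was without overlap of the groups. The shares over all tested genes were 16.8%, 14.5% and 39.8%.

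Of the 4 chaperones that build the core 1 rose, against 16.8% of all tested genes, and the other 3 did not pass. Psmg1, which pairs with Psmg2 to start the alpha ring, was at 17.5, 13.0 and 15 CPM in WT and at 22.8, 20.2, 25.7 and 25.3 CPM in GOF. The groups were apart, and the log2 fold change of 0.63 (SE 0.15, edgeR adjusted p = 0.0124), or 1.55-fold, was the largest among the members outside the immunoproteasome that were called higher. Its partner Psmg2 was at 0.11 (SE 0.12, edgeR adjusted p = 0.547), and Psmg3 and Psmg4, which form the other chaperone pair, were at 0.22 (SE 0.16) and 0.09 (SE 0.21). Psmg3, at 7.16 to 10.4 CPM, had the lowest mean CPM of the 41 tested members other than the immunoproteasome and name-only genes. Pomp, the maturation protein that helps to close the core and is not caught by the name rule, was at 51.0, 38.6 and 47.1 CPM in WT and at 71.2, 62.9, 67.6 and 66.0 CPM in GOF, and it rose (0.55, SE 0.11, edgeR adjusted p = 0.00628).

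Of the 17 ATPase and non-ATPase genes of the 19S cap caught by the name rule, 2 were called, both lower. Over all tested genes 31.3% were called, 16.8% higher and 14.5% lower. Of the 6 ATPases Psmc1 to Psmc6, 5 had negative values and 1 fell, with a range of -0.29 to 0.04. Psmc6 was at 100.3, 103 and 107 CPM in WT and at 85.4, 90.1, 78.5 and 84.6 CPM in GOF, without overlap (log2 fold change -0.29, SE 0.08, edgeR adjusted p = 0.0267). It lost its call in 11 of 19 alternatives, among them those without WT replicate 3 (adjusted p = 0.0876) or GOF replicate 1 (0.0707), 3 (0.0787) or 4 (0.0560), with log2 fold changes of -0.32 to -0.21 over all 19. Of the 11 non-ATPase subunits 1 fell and 0 rose. Psmd7, the partner of the deubiquitinase Psmd14, was at 124, 100.1 and 132 CPM in WT and at 83.2, 74.5, 79.5 and 87.1 CPM in GOF. All GOF libraries were below all WT libraries, and Psmd7 fell (log2 fold change -0.55, SE 0.11, edgeR adjusted p = 0.00581). Psmd14 itself had the opposite sign at 0.24 (SE 0.14, edgeR adjusted p = 0.241), with WT values of 52.1 to 81.8 CPM around the GOF values of 73.6 to 78.8 CPM. Psmd12, a lid subunit, was without overlap at 52.6 to 63.1 CPM in WT and 66.5 to 75.1 CPM in GOF and did not pass (0.28, SE 0.10, edgeR adjusted p = 0.0592).

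Of the 3 chaperones of the cap 1 fell, against 14.5% of all tested genes, and the other 2 did not pass. Psmd5, which holds part of the ATPase ring during assembly, was at 40.8, 70.1 and 70.2 CPM in WT and at 35.7, 39.2, 33.2 and 36.6 CPM in GOF. WT replicate 1 was far below the other WT libraries and just above the GOF range. Psmd5 fell (log2 fold change -0.74, SE 0.18, edgeR adjusted p = 0.0139), the largest fall among the members, but without WT replicate 3 it was at -0.62 and did not pass (adjusted p = 0.0583). It also missed the threshold with limma on log2(FPKM + 1) (-0.52, adjusted p = 0.0523). Psmd9 was at 0.26 (SE 0.20, edgeR adjusted p = 0.364) and Psmd10, also called gankyrin, at -0.0007 (SE 0.15, edgeR adjusted p = 0.998). Exons of Psmd9 overlap a noncoding RNA on the other strand by 1849 bases.

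Psmf1, the inhibitor PI31 that binds the core, was at 63.7, 54.1 and 67.3 CPM in WT and at 50.4, 47.3, 48.1 and 51.1 CPM in GOF. The groups were apart, and Psmf1 fell by 0.33 on the log2 scale (SE 0.10, edgeR adjusted p = 0.0374). It lost its call in 16 of 19 alternatives, keeping it with DESeq2, with DESeq2 size factors in edgeR and without WT replicate 2, and the adjusted p reached 0.169. The caps other than PA28 alpha and beta gave no call. Psme3, the nuclear PA28 gamma, was at -0.10 (SE 0.10, edgeR adjusted p = 0.441), and Psme4, the cap PA200, at -0.24 (SE 0.10, edgeR adjusted p = 0.0927). WT values of Psme4 lay between 88.1 and 89.6 CPM and GOF values between 69.1 and 84.4 CPM. Groups did not overlap for 3 of the 43 other members with GOF above WT and for 5 with GOF below WT, against 21.5% and 18.2% of all tested genes.

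Of the members 2 carry the name without being proteasome subunits in their own right. Psmc3ip, a meiotic recombination factor, was at 1.81 to 5.10 CPM in WT and 3.71 to 5.65 CPM in GOF (log2 fold change 0.52, SE 0.37, edgeR adjusted p = 0.322). Psme2b is a copy of Psme2 on chromosome 11 (48945354 to 48946190) whose transcript shares 68.7% of its windows of 50 bases with Psme2 transcripts. It was at 161, 132 and 150 CPM in WT and at 184, 182, 202 and 185 CPM in GOF and rose (0.35, SE 0.09, edgeR adjusted p = 0.0176). Without WT replicate 3 its adjusted p was 0.0521. It took 74.0% ± 1.08 (SD, n = 3) of the joint CPM of the 2 genes in WT and 74.5% ± 2.41 (SD, n = 4) in GOF, and how the authors placed reads that fit both is not given, so the split between them is uncertain. Summed, the 2 genes were at 214, 180 and 204 CPM in WT and at 241, 237, 275 and 259 CPM in GOF, without overlap.

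**Figure D3:**
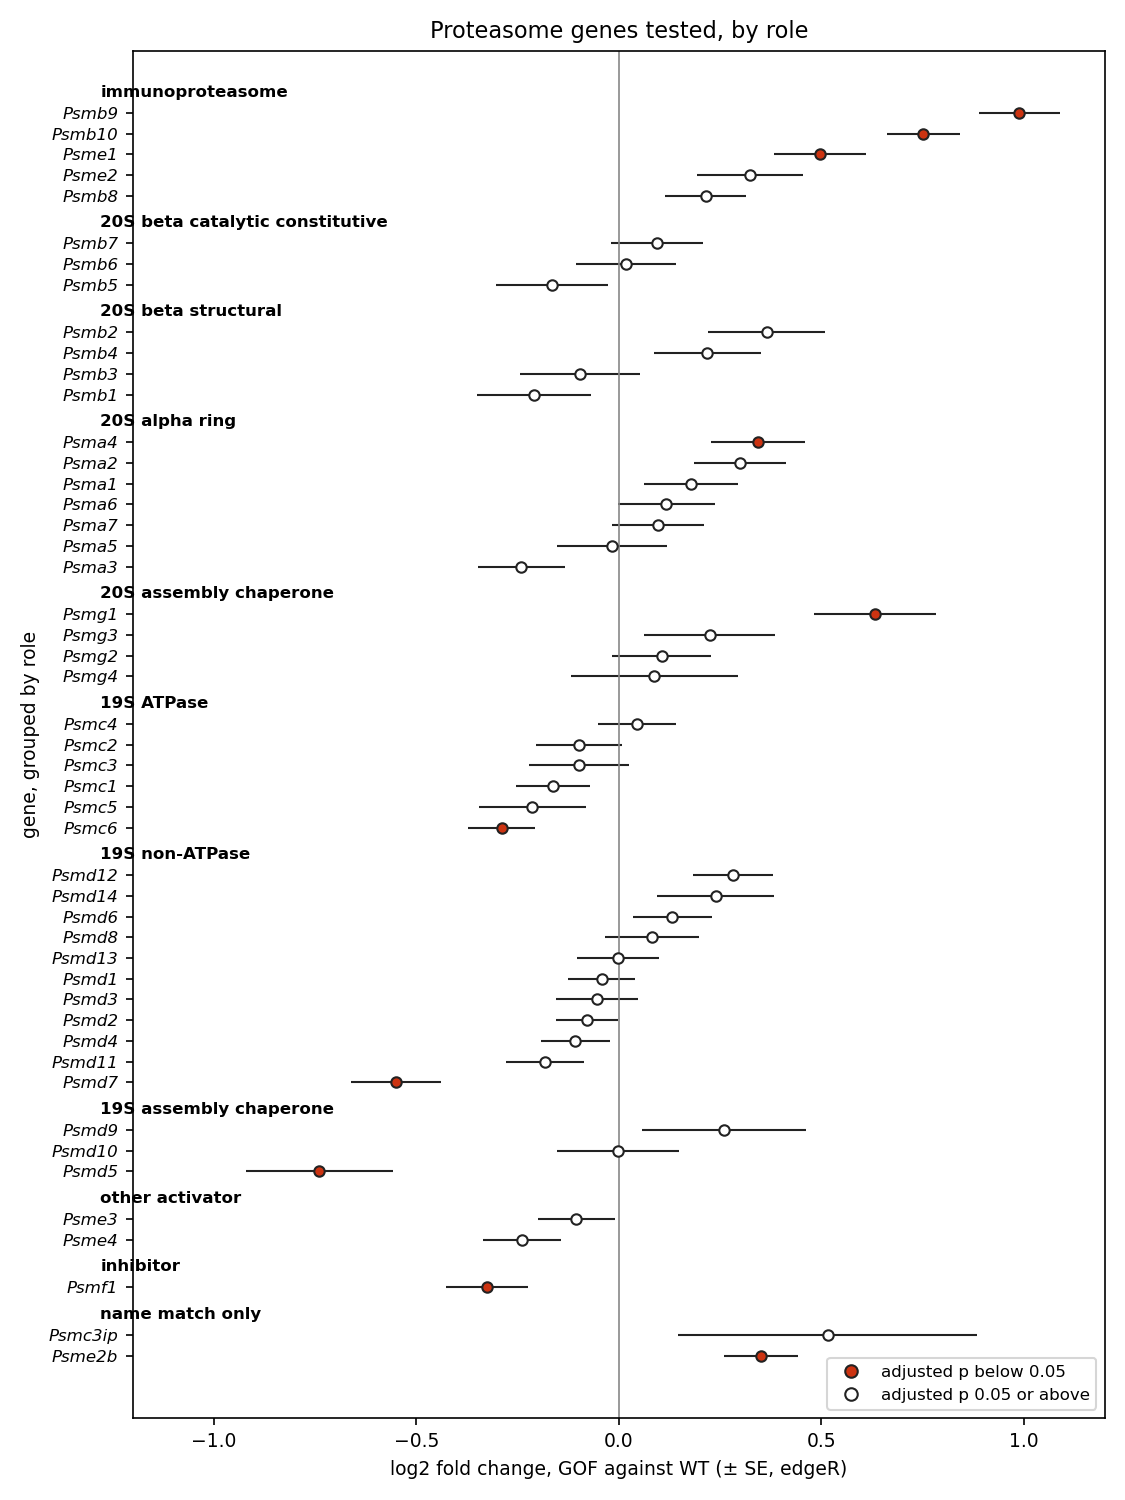
Log2 fold change of GOF against WT with its SE for the 48 tested members, grouped by role. Filled points passed an adjusted p of 0.05 (edgeR). The 5 immunoproteasome genes lie between 0.21 and 0.99, and 35 of the 43 others lie within 0.3 of 0.

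Libraries of the same genotype also differed in their proteasome genes. WT replicate 2 was the lowest of the 3 WT libraries for 35 of these 43 genes (81.4%), against 34.1% of all tested genes, and WT replicate 1 was the highest for 29. Among the GOF libraries replicate 2 was the lowest for 30 of 43 (69.8%), against 30.6% of all tested genes. Summed, the other members were at 4080, 3316 and 3781 CPM in WT and at 3696, 3474, 3812 and 3825 CPM in GOF, so that the spread between WT mice was larger than the difference between the genotype means. Of the 5 immunoproteasome genes 2 were lowest in WT replicate 2 and 4 in GOF replicate 2. Psmb9 had its highest WT value and its lowest GOF value in replicate 2. The order was read from the same libraries for all genes, and these genes share each library's scaling.

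**Figure D4:**
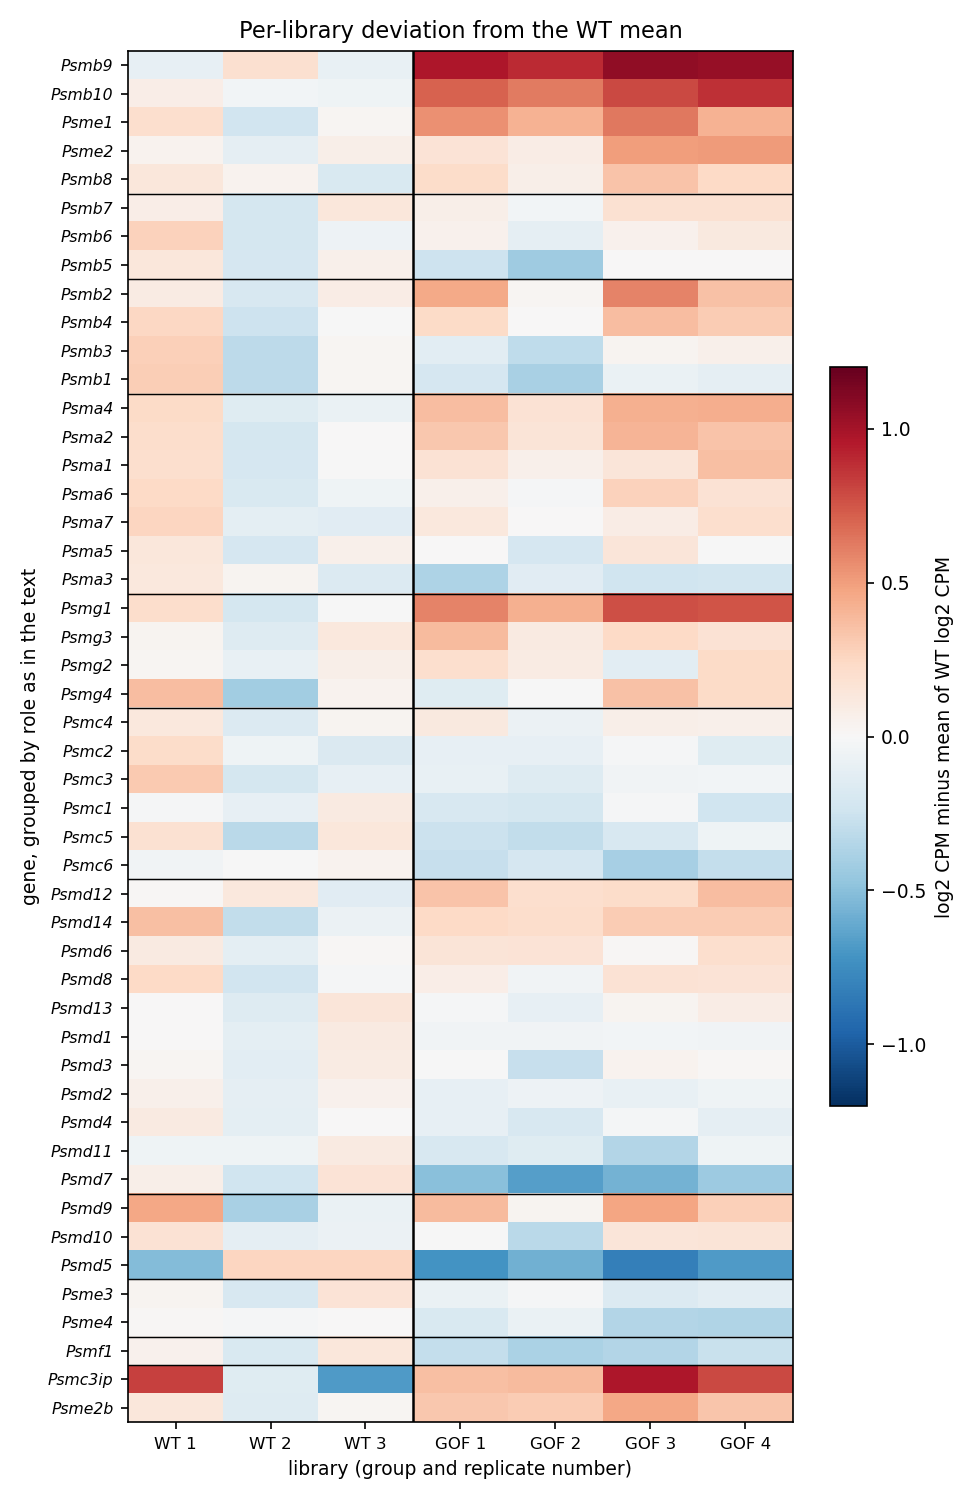
Log2 CPM of each tested member in each library minus the mean log2 CPM of the 3 WT libraries, in the role order of the plot of fold changes (red above, blue below). Psmb9 and Psmb10 are high in all 4 GOF libraries, most other genes are near 0, and the WT 2 column is low for most genes of the core and the cap.

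Of 31 genes that work with the proteasome outside the name rule, 30 were found by symbol and tested, of which 3 rose and 7 fell (median log2 fold change -0.21), against 16.8% and 14.5% of all tested genes. The list was chosen with earlier results of these data known. Besides Pomp, Shfm1, the small cap subunit now called Sem1, rose from 53.1 ± 8.35 to 75.7 ± 5.21 CPM (0.51, SE 0.12, edgeR adjusted p = 0.0124). Ngly1, the glycanase that activates the transcription factor Nrf1 of proteasome genes, was at 97.4, 107 and 116 CPM in WT and at 65.3, 60.9, 55.3 and 57.3 CPM in GOF and fell (-0.84, SE 0.10, edgeR adjusted p = 0.000336). Ubqln4, a shuttle that brings ubiquitinated proteins to the proteasome, fell from 130 ± 3.27 to 91.1 ± 5.94 CPM (-0.51, SE 0.08, edgeR adjusted p = 0.00188). Nfe2l1, which encodes Nrf1 and was chosen after its values were seen, ran from 34.9 to 122 CPM within WT and from 19 to 104 CPM within GOF and did not pass (edgeR adjusted p = 0.266).

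Of 16 genes that act with the immunoproteasome in peptide supply or in its control by interferon, 7 rose and 4 fell (median 0.15). Over all tested genes 16.8% rose and 14.5% fell. Tap1, chosen after its values were seen because its promoter window is shared with Psmb9, was at 269, 271 and 195 CPM in WT and at 472, 377, 436 and 413 CPM in GOF, and it rose (0.79, SE 0.13, edgeR adjusted p = 0.00221). Ifngr1, the ligand-binding chain of the interferon gamma receptor, fell from 973 ± 265 to 147 ± 11.9 CPM (-2.73, SE 0.18, edgeR adjusted p = 1.23e-05). Jak2, a kinase on that receptor, fell from 334 ± 41.3 to 157 ± 15.6 CPM (-1.08, SE 0.11, edgeR adjusted p = 0.000142). Socs1, an inhibitor of the same kinases, fell from 122 ± 39.0 to 34.4 ± 3.53 CPM (-1.82, SE 0.19, edgeR adjusted p = 0.000181). Of the interferon regulatory factors on this list, Irf1 (0.65, SE 0.12, edgeR adjusted p = 0.00427) and Irf8 (2.12, SE 0.45, edgeR adjusted p = 0.00734) rose. Irf2 fell (-0.41, SE 0.09, edgeR adjusted p = 0.00762). Ifngr2 (-0.16, edgeR adjusted p = 0.392) and Jak1 (-0.27, edgeR adjusted p = 0.0759) did not pass. The Irf genes, Ifngr2, Jak1 and the other genes of the MHC class I pathway on this list are named after their values were seen. Tapbpl (0.84, SE 0.12, edgeR adjusted p = 0.000822) and Tapbp (0.25, SE 0.07, edgeR adjusted p = 0.0310), which help to load peptides, rose. Erap1, a peptidase that trims them, also rose (0.32, SE 0.10, edgeR adjusted p = 0.0461). B2m, the light chain of class I molecules (0.15, SE 0.10, edgeR adjusted p = 0.291), and Tap2, the partner of Tap1 (0.15, SE 0.09, edgeR adjusted p = 0.233), did not pass, nor did the class I regulator Nlrc5 (0.11, SE 0.14, edgeR adjusted p = 0.586).

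The libraries carried the markers of CD4 T cells, with Cd4 at 698 to 855 CPM in WT and 1064 to 1163 CPM in GOF. The summed markers of each other cell list were higher in every GOF library than in every WT library. Of 12 myeloid markers 11 rose and 0 fell, and their summed level was 43.7 to 82.3 CPM in WT and 153 to 513 CPM in GOF, highest in GOF replicates 1 and 3. Of 10 B cell markers 5 rose (355 to 448 CPM in WT, 684 to 1110 CPM in GOF), of 5 neutrophil markers all 5 (0.344 to 5.46 and 47.9 to 168 CPM), of 6 NK and CD8 T cell markers 4 (37.5 to 47.0 and 58.6 to 90.3 CPM), and of 6 dendritic cell markers, 3 of them tested, 1 (2.16 to 4.34 and 10.2 to 26.6 CPM), and none of these markers fell. Over all tested genes 16.8% rose and 14.5% fell. In the NK and CD8 T cell list the genes that rose were Ncr1, Klrb1c, Nkg7 and Gzma. Cd8a (log2 fold change -0.78, edgeR adjusted p = 0.0972) and Cd8b1 (-0.23, edgeR adjusted p = 0.30) had the opposite sign and did not pass. Camp and Clec9a had 0 counts in WT, and no marker was at 0 in all libraries. In bulk samples a different mix of cells and a different amount of RNA per cell cannot be told apart.

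The immunoproteasome genes together were at 1053, 970, 1140 and 1071 CPM in GOF replicates 1 to 4 while the myeloid sums in the same order were 480, 153, 513 and 178 CPM. Without GOF replicates 1 and 3, an alternative chosen after the data were seen, Psmb9 was at 0.96 (edgeR adjusted p = 0.00356) and Psmb10 at 0.75 (adjusted p = 0.00853). Psme1 was then at 0.40 and did not pass (adjusted p = 0.107), Psmg1 at 0.58 (0.0987), Psme2b at 0.31 (0.142), Psmd7 at -0.56 (0.0524) and Psmd5 at -0.68 (0.102). Pomp (adjusted p = 0.0752) and Shfm1 (0.10) also missed the threshold there. In that fit 2 of the 5 immunoproteasome genes were called higher and 0 of the 43 other members were called in either direction (edgeR), where 16.9% of all genes tested were called and 8.53% were called higher. GOF replicates 2 and 4 still held myeloid sums above the WT range. The part of these other cells in the results was not tested.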

How the data were processed

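RNA sequencing counts of 3 WT and 4 GOF libraries were analysed. The authors deposited 1 table with raw counts and FPKM per gene and library. The submitters' processing notes list HISAT2 2.0.4, Cufflinks 2.1.1, Cuffdiff and mm10. Which tool counted, by what rule and with what strand setting is not given in the sources used here. In the deposited table each FPKM is the gene's count over 1 constant length and the library's summed counts (within 0.1% for 100% of values). Counts were tested with edgeR 4.0.16 (R 4.3.3; filterByExpr, TMM, quasi-likelihood, all 7 libraries, 1 model, adjusted p below 0.05 over all genes tested). DESeq2 1.42.0, limma 3.58.1 on log2(FPKM + 1), other scalings and filters and leaving out libraries were alternatives. The script was tested on simulated data. Exact permutation tests used scipy 1.17.1. GENCODE M21 gave exon lengths and overlaps, RefSeq (GRCm38.p6) the promoters. Coordinates of genes are as deposited. Named are the immunoproteasome genes, their constitutive counterparts, up to 3 called genes per role and up to 4 called genes per list, by smallest p; any others were chosen after their values were seen. A gene that this rule also names is not reported here. The members, lists and rules were chosen with earlier results of these data known. Nothing states that mice were pooled or that replicate numbers pair the samples, and no pair of libraries agreed within sampling noise.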

Additional observations from a re-analysis of the deposited data

Results flagged for a closer look

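Among 51 values checked for a library apart from the other GOF libraries, 2 were marked, where chance alone gives about 1 in 20 groups. Psmd3, a scaffold subunit of the cap, was at 130 CPM in GOF replicate 2 and at 157 to 162 CPM in the other 3 GOF libraries. Psme2b, the copy of Psme2, was at 202 CPM in GOF replicate 3 and at 182 to 185 CPM in the others.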

How the results depend on the processing

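Under 17 alternatives and 2 added after the data were seen, Psmb9, Psmb10, Ifngr1, Jak2, Socs1, Ngly1 and Ubqln4 kept direction and call. The 5 immunoproteasome genes were all called higher with library totals alone and with limma at pseudocounts of 1 and 0.1 (5, 5 and 5), and 2 to 4 were called in the other alternatives. Calls among the other members moved more. Called higher were 5 with upper quartile scaling and with quantile normalization, 6 with library totals and with limma at either pseudocount, 1 to 6 when a library was left out, and 0 without GOF replicates 1 and 3. Called lower were 2 with upper quartile scaling, library totals, limma at either pseudocount, no filter or the replicate block, 1 to 5 when a library was left out, 0 without GOF replicates 1 and 3 and 1 without GOF replicates 2 and 4. Over all genes 8.53% to 21.1% were called higher and 8.34% to 16.6% lower across the settings. The log2 fold change of Psmb6 turned to -0.0046 with the replicate block and -0.0149 without GOF replicates 1 and 3, and ran from -0.0884 to 0.165 when a library was left out. That of Psmb7 ran from -0.0079 (without WT replicate 2) to 0.157 when a library was left out. Neither was called in any fit. The cause of these shifts was not tested, except that fits without libraries have fewer samples. The median of all genes moved from 0.01 to 0.08 with library totals or upper quartile scaling. Same-numbered WT and GOF libraries correlated at 0.03, 0.09 and -0.07, so the numbers were not read as pairs. So few libraries cannot exclude pairing. The replicate block, fitted without GOF replicate 4, left 3 immunoproteasome genes higher and 2 other members higher. Its shifts mix the block with the loss of that library. With 3 against 4 libraries the permutation tests could not pass 0.05.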
